A study of Homo sapiens with 4 samples.

Results

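The genes described here make up the machinery of DNA replication and S phase. They were taken as a list of 59 symbols, sorted by role into origin licensing (15 genes), origin firing (8), polymerases (10), the clamp and the replication fork (12), nucleotide supply (5), chromatin assembly and histone mRNA (4), and E2F factors with cyclin E (5). All 59 had a value among the 11650 genes in the files, and all 59 were among the 10271 genes tested, which averaged at least 1 FPKM over the 4 libraries. All libraries come from the established cell line 92.1, grown from a uveal melanoma, which arises from pigment cells of the eye. There were 2 libraries titled Res, of cells labelled resistant (resistant), and 2 titled Ctrl, of cells labelled parental (parental). Not given in the sources used here are the agent resisted, how the cells were selected, whether they are a clone or a pool, and whether replicates came from separate cultures. The spread behind each p-value is thus that of these libraries and may be technical. Cell line labels count up from 92.1 across the samples while every title names 92.1, and the titles were followed.

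A replication origin is licensed in G1, when the origin recognition complex (ORC), CDC6 and CDT1 load the ring of MCM2 to MCM7, the core of the replicative helicase, onto DNA. In S phase the kinase CDC7 with its activator DBF4, together with CDC45 and the GINS complex, turns the loaded ring into a working helicase, and polymerases alpha, delta and epsilon copy the strands behind it with the sliding clamp PCNA and its loader RFC. Many of these genes are transcribed in late G1 and S phase by E2F factors, so their mRNA is commonly read as a sign of cycling cells.

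E2F factors bind GC-rich letters of the following kind. The runs TTTCGCGC or TTTGGCGC, read on both strands, were looked for in the 250 bases before the start in RefSeq promoter windows (GRCh38.p14), which matched 52 of the 59 genes by symbol. They stood in the windows of 11 of the 52 (21.2%), against 187 of the 8390 tested genes with a window (2.23%) and 0.968% of all 35116 windows. The 4 sequences printed here were chosen because each carries these letters, which are in capitals, outside any exon of GENCODE release 29, and because they belong to 4 different roles. They run 5′ to 3′ on the strand of the gene.
MCM6, chr2:135876497-135876620, minus strand: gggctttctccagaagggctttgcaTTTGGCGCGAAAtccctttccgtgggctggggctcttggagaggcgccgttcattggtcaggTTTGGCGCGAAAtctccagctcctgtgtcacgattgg
POLA1, chrX:24693756-24693813, plus strand: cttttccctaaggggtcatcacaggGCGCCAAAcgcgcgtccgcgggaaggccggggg
UHRF1, chr19:4909959-4910016, plus strand: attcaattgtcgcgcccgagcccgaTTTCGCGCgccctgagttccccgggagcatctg
E2F2, chr1:23531243-23531300, minus strand: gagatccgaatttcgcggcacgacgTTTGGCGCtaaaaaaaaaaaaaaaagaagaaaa

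In MCM6 the 12-letter run in capitals occurs 2 times and holds TTTGGCGC on one strand overlapped by TTTCGCGC on the other. POLA1 carries the letters in the reverse orientation. Among the replication genes, the log2 fold change of resistant over parental libraries had a median of -0.20 for the 11 with these letters (10 below 0) and -0.17 for the 41 without them (33 below 0). Over all tested genes the medians were -0.07 with and -0.07 without the letters. The letters CCAAT, read by the factor NF-Y, stood in at least 1 window of 55.8% of the 52 genes and of 42.4% of the tested genes with a window. For GGGCGG, read by Sp1, these shares of genes were 76.9% and 76.7%. For TTTGAA, the core of the cell cycle homology region (CHR) element, they were 7.69% and 11.7%. A match of letters describes the window and does not show a bound site.

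Before the fold changes, some facts hold for all the results. Summed FPKM was 292736 and 293481 in the resistant libraries, against 282602 and 283387 in the parental ones, and the true depth is unknown. The median-of-ratios factors were 1.04 and 0.906 in resistant, against 1.06 and 1.02 in parental libraries. Overlap between groups was judged on FPKM without rescaling, so a narrow separation or a narrow overlap may change after scaling. The resistant libraries differed more from each other (a replicate SD over genes of 0.378 on the log2 scale) than the parental ones did (0.266), and replicate 2 lay below replicate 1 of the resistant cells for 66.1% of all genes tested and for 43 of the 59 replication genes. Each result below is therefore read in both resistant libraries. All 8 pigment cell markers had a value, and their summed FPKM was 2993 and 2261 in resistant, against 2587 and 2307 in parental libraries. Most of that sum was TYRP1, a melanin enzyme (2143 and 1514 against 1490 and 1484 FPKM). SOX10 and MITF, transcription factors of the lineage, DCT, a melanin enzyme, and S100B, a calcium-binding protein, were lower without overlap. DCT had 0.486 and 0.517 FPKM in resistant, against 4.88 and 5.46 FPKM in parental libraries. The lower genes were 4 of the 8 (50%), against 31.8% of all genes, and TYRP1 alone (12.5%, against 19.1%) was higher without overlap. TYR, MLANA and PMEL overlapped, TYR with 177 and 114 against 121 and 113 FPKM. The median log2 fold change of the 8 was -0.49, with 0 called. Of 7 epithelial markers 3 had a value, and their sum was 9.39 and 17.7 FPKM in resistant, against 3.12 and 3.91 FPKM in parental libraries. Of 8 fibroblast markers 4 had a value (14.4 and 10.6 against 5.94 and 6.90 FPKM), as had 2 of 7 leukocyte (13.2 and 10.7 against 32.6 and 27.4 FPKM), 3 of 5 pigment epithelium (4.48 and 3.08 against 5.29 and 4.69 FPKM) and 0 of 5 endothelial markers. The fibroblast collagen COL1A2 had 0.747 and 0.531 FPKM in resistant, against 0.00848 and 0.00683 FPKM in parental libraries. The part of these differences in the results was not tested.

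No replication gene passed the test, and the shares of the list that were lower in resistant cells, at an unadjusted p or without overlap, were close to those of all genes. In limma with Benjamini-Hochberg adjustment over all 10271 genes, 0 of the 59 were called in either direction at an adjusted p of 0.05, and their smallest adjusted p was 0.166 (MCM3). Over all genes the same test called 5 higher (0.0487%) and 1 lower (0.00974%). At an unadjusted limma p under 0.05, 7 of the 59 (11.9%) were lower, against 10.2% of all genes tested, and 0 were higher, against 6.06%. The 7 were MCM3, RFC4, FEN1, CDT1, MCM4, RFC5 and CHAF1B. Their number depended on the library left out, and so did that of all genes. Without resistant replicate 1, 22 of the 59 (37.3%) were lower, against 24.6% of all genes. Without resistant replicate 2, 9 (15.3%) were lower, against 11.3%. Without parental replicate 1 it was 1 (1.69%), against 3.27%, and without parental replicate 2 it was 0, against 4.51%. The 5 genes called higher over all genes became 0 without either resistant library, and 17 and 19 without parental replicates 1 and 2. In 21 of the 59 (35.6%) both resistant libraries lay below both parental libraries, against 31.8% of all genes, and in 3 (5.08%) both lay above, against 19.1%. The shares that were higher were below those of all genes. With 2 libraries a group, the smallest two-sided p of an exact permutation test is 0.33.

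The median log2 fold change of the 59 genes was -0.17 on the log2(FPKM + 1) scale, where the changes of genes with low FPKM come out too small, against -0.08 for all genes tested. It ranged over the genes between -0.77 (RFC4) and 0.83 (E2F3). The fold change was below 0 for 47 of the 59 (79.7%), against 58.6% of all genes. Against the parental mean, 33 of the 59 (55.9%) were lower in resistant replicate 1, against 51.2% of all genes, and 47 (79.7%) in replicate 2, against 63.0%. The median difference was -0.05 in resistant replicate 1 and -0.31 in replicate 2, where all genes had -0.01 and -0.16. The size of the shift thus depended on the library, and after median-of-ratios scaling the median of the 59 was -0.07 with 39 below 0, against 0.01 and 49.2% for all genes. In bulk RNA, fewer cells in S phase and less of these mRNAs per cell cannot be told apart.

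**Figure D1:**
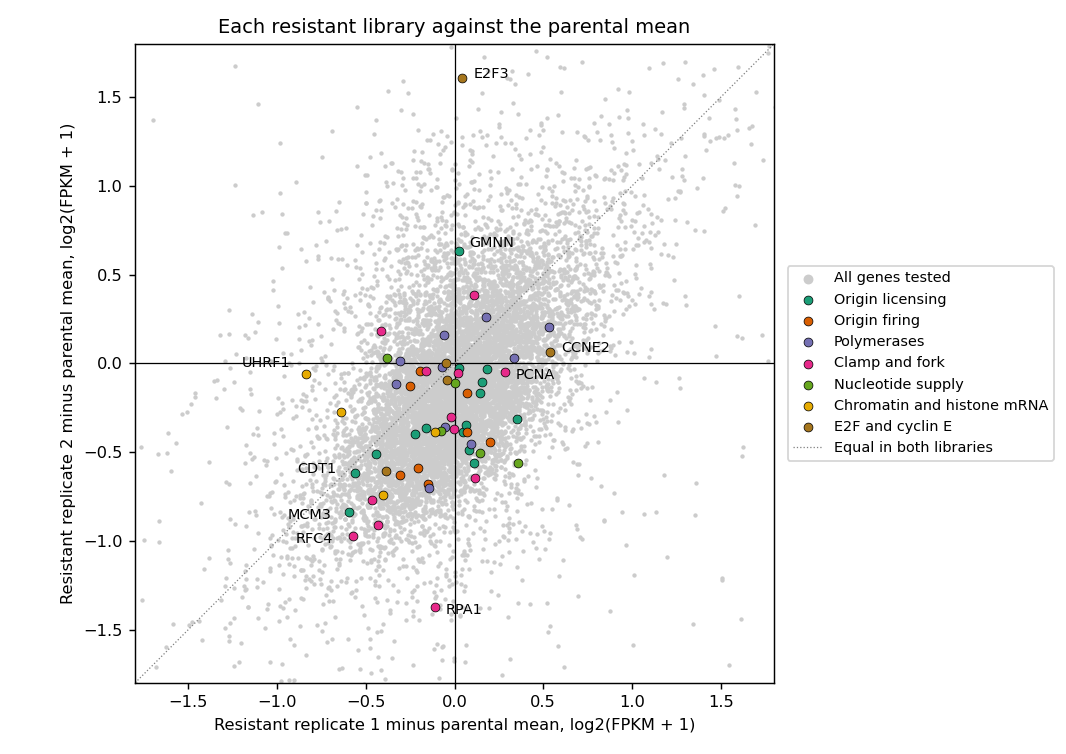
Difference of each resistant library from the parental mean on the log2(FPKM + 1) scale, replicate 1 on the horizontal and replicate 2 on the vertical axis, for the 59 replication genes (coloured by role) over all genes tested (grey, with 152 lying beyond the axes). Most replication genes lie under the diagonal, lower in replicate 2 than in replicate 1, while MCM3, RFC4 and CDT1 are low in both and E2F3 is high in replicate 2 alone.

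Licensing held the gene with the smallest p. MCM3, a subunit of the MCM ring (ENSG00000112118.18_2, chromosome 6 from 52264009 to 52284881), had 59.1 and 49.8 FPKM in resistant libraries, against 87.3 and 92.1 FPKM in parental libraries. The groups did not overlap, and the log2 fold change was -0.71 ± 0.16 (SE, limma adjusted p = 0.166, 95% interval -1.12 to -0.31). MCM4, another subunit of the ring, had 32.1 and 30.5 FPKM in resistant, against 44.7 and 43.2 FPKM in parental libraries (-0.48 ± 0.15 SE, limma adjusted p = 0.248). For the other subunits, MCM7 had 26.0 and 22.9 against 31.6 and 29.5 FPKM, and MCM5 had 7.46 and 6.33 against 8.79 and 8.11 FPKM, both also without overlap. MCM6 had 26.2 and 17.4 FPKM in resistant, against 24.03 and 25.5 FPKM in parental libraries, so that resistant replicate 1 lay above both parental libraries. MCM2 overlapped, with 9.70 and 7.64 against 9.18 and 8.21 FPKM. Of the 6 subunits, 4 (66.7%) were lower without overlap, against 31.8% of all genes. All 6 had a fold change below 0 (100%, against 58.6% of all genes), but MCM2 turned above 0 after median-of-ratios or quantile scaling. Over the whole licensing role, 5 of 15 genes (33.3%) were lower without overlap, and 11 (73.3%) had a fold change below 0.

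CDT1, the loading factor that brings the ring to the origin, had 10.2 and 9.81 FPKM in resistant, against 16.1 and 15.0 FPKM in parental libraries (-0.59 ± 0.17 SE, limma adjusted p = 0.219). Its inhibitor geminin, GMNN, had 28.5 and 44.1 FPKM in resistant, against 26.7 and 29.5 FPKM in parental libraries (0.33 ± 0.24 SE, limma adjusted p = 0.541), and only resistant replicate 2 lay above both parental libraries. The ratio of CDT1 to GMNN FPKM, which a single scaling factor per library cannot alter, was 0.359 and 0.222 in resistant, against 0.605 and 0.508 in parental libraries, without overlap. CDC6, which works with ORC in loading, had 17.6 and 10.8 against 13.3 and 13.9 FPKM and did not separate the groups. The 6 ORC subunits, which mark origins, had log2 fold changes between -0.23 and 0.08, and none separated the groups. All 6 were above the parental mean in resistant replicate 1 and below it in replicate 2, ORC5 by only 0.02 and -0.03. Of all genes, 51.2% were below that mean in resistant replicate 1 and 63.0% in replicate 2. The ORC levels averaged between 3.05 and 9.17 FPKM, under most of the MCM genes, whose means reached 72.1 FPKM.

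**Figure D2:**
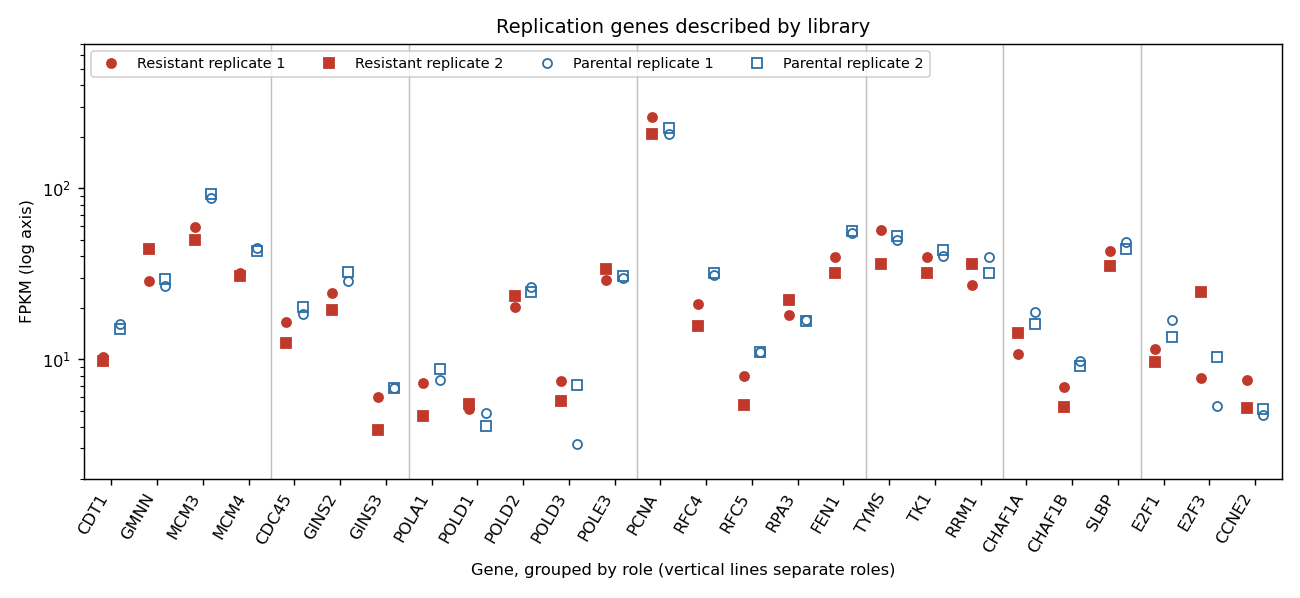
FPKM of the 26 replication genes chosen by rule, on a log axis, in the 2 resistant (filled) and 2 parental (open) libraries, with vertical lines between roles. MCM3, MCM4, CDT1, RFC4, RFC5 and FEN1 have both resistant values below both parental values, and PCNA, POLE3 and TYMS have values that overlap.

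Among the firing genes, GINS2 was the most abundant and had the smallest p. GINS2, a subunit of the 4-member GINS complex, had 24.3 and 19.3 FPKM in resistant, against 28.5 and 32.3 FPKM in parental libraries (-0.47 ± 0.19 SE, limma adjusted p = 0.316). GINS3 had 5.98 and 3.82 against 6.74 and 6.74 FPKM. CDC45, which joins GINS on the MCM ring, had 16.5 and 12.4 FPKM in resistant, against 18.3 and 20.1 FPKM in parental libraries (-0.40 ± 0.20 SE, limma adjusted p = 0.393). In all 3 genes the resistant libraries lay below the parental ones, as they did, more narrowly, in GINS4 (8.59 and 9.66 against 9.78 and 10.2 FPKM). These were 4 of the 8 firing genes (50%), against 31.8% of all genes. The kinase CDC7 had 14.0 and 8.60 FPKM against 11.1 and 13.0 FPKM, its activator DBF4 5.44 and 6.01 against 5.77 and 7.66 FPKM, and neither separated the groups. All 8 fold changes of this role were below 0 (100%, against 58.6% of all genes), between -0.47 and -0.05. MCM10, a factor that binds the activated helicase, turned above 0 after median-of-ratios or quantile scaling.

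The polymerases showed no common direction. POLA1, the catalytic subunit of polymerase alpha, which starts each strand with primase, had 7.26 and 4.62 FPKM in resistant, against 7.54 and 8.77 FPKM in parental libraries (-0.42 ± 0.25 SE, limma adjusted p = 0.449). POLD2, an accessory subunit of polymerase delta, had 20.2 and 23.6 FPKM in resistant, against 26.6 and 24.7 FPKM in parental libraries. POLD1, the catalytic subunit of the same enzyme, lay the other way with 5.13 and 5.49 against 4.82 and 4.05 FPKM (0.22 ± 0.19 SE, limma adjusted p = 0.592), and was 1 of the 3 replication genes with both resistant libraries above both parental ones. POLD3, a further delta subunit, had 7.42 and 5.69 FPKM in resistant, against 3.18 and 7.08 FPKM in parental libraries, so that its fold change of 0.37 rested on parental replicate 1 (-0.11 without it). POLE3, a histone-fold subunit of polymerase epsilon and the most abundant gene of this role, had 28.99 and 33.8 against 29.7 and 30.7 FPKM, with a 95% interval of the log2 fold change from -0.37 to 0.47. The 10 genes had a median of -0.10, with 6 below 0 (60%, against 58.6% of all genes), or 5 after median-of-ratios or quantile scaling.

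In unscaled FPKM the clamp gene overlapped between groups, as did 3 of the 5 genes of its loader. The other 2 loader genes (40%) were lower without overlap, against 31.8% of all genes. Over the whole clamp and fork role, 4 of 12 genes (33.3%) were lower without overlap. In that role 1 gene (8.33%) was higher without overlap, against 19.1% of all genes. PCNA, the ring that tethers polymerases to DNA (ENSG00000132646.10_2, chromosome 20 from 5114953 to 5126626), was the replication gene with the highest FPKM, and its mean was at or above that of 98.9% of the tested genes. It had 263 and 208 FPKM in resistant, against 207 and 225 FPKM in parental libraries, and the groups overlapped (0.12 ± 0.16 SE, limma adjusted p = 0.754, 95% interval -0.30 to 0.53). After median-of-ratios scaling its log2 fold change was 0.22 (limma adjusted p = 0.484), and overlap was not judged on the scaled values. RFC4, a subunit of the loader that opens the clamp, had 21.0 and 15.6 FPKM in resistant, against 31.1 and 32.1 FPKM in parental libraries. Its log2 fold change of -0.77 ± 0.20 (SE, limma adjusted p = 0.196) was the lowest of all 59 genes. RFC5 had 7.95 and 5.41 against 11.1 and 11.1 FPKM (-0.67 ± 0.22 SE, limma adjusted p = 0.267), also without overlap. The large loader subunit RFC1 had 18.5 and 28.5 against 24.5 and 25.5 FPKM, RFC3 28.9 and 16.6 against 24.9 and 28.4 FPKM, and RFC2 12.0 and 11.3 against 17.4 and 7.90 FPKM. None of those 3 separated the groups, so within 1 complex some subunits were lower in both resistant libraries and others were not, a difference between subunits that was not itself tested.

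FEN1, the nuclease that trims the flaps of lagging-strand fragments (ENSG00000168496.3_3, chromosome 11 from 61792637 to 61797244), had 39.8 and 32.0 FPKM in resistant, against 54.9 and 55.9 FPKM in parental libraries (-0.62 ± 0.17 SE, limma adjusted p = 0.214). LIG1, the ligase that seals the same fragments, had 5.86 and 4.33 against 5.56 and 6.22 FPKM and overlapped. Of the single-strand binding complex, RPA3 had 18.2 and 22.2 FPKM in resistant, against 16.9 and 16.7 FPKM in parental libraries (0.25 ± 0.18 SE, limma adjusted p = 0.527), and was another of the 3 genes that were higher without overlap. RPA2 had 28.9 and 23.6 against 29.5 and 29.2 FPKM. RPA1 had 15.9 and 6.08 against 18.9 and 15.9 FPKM, and its fold change of -0.74 came from resistant replicate 2 (-1.37 against the parental mean, where replicate 1 had -0.11). TIPIN, of the fork protection complex, had 4.52 and 5.003 against 4.25 and 6.28 FPKM.

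PCNA and the MCM genes can also be set side by side within each library, where a single scaling factor per library cancels. The ratio of PCNA to the mean FPKM of MCM2 to MCM7 was 9.83 and 9.29 in resistant, against 6.04 and 6.53 in parental libraries. The summed FPKM of the 6 MCM genes was 161 and 135 in resistant, against 206 and 207 in parental libraries. MCM3 was the most abundant of the 6 (59.1 and 49.8 against 87.3 and 92.1 FPKM), so the sum and the ratio to PCNA follow it most. The most abundant MCM gene exceeded the least abundant by a factor of 7.92 and 7.87 in resistant, against 9.93 and 11.4 in parental libraries. For GINS the same factor overlapped between groups (4.06 and 5.05 against 4.23 and 4.80), as it did for RFC (3.63 and 5.27 against 2.81 and 4.06). The ratio of E2F1 to E2F3 was 1.48 and 0.390 in resistant, against 3.19 and 1.32 in parental libraries, and overlapped. These ratios were described and not tested, and no share over other pairs of genes was computed. Of all single genes tested, 19.1% were higher and 31.8% lower without overlap.

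**Figure D3:**
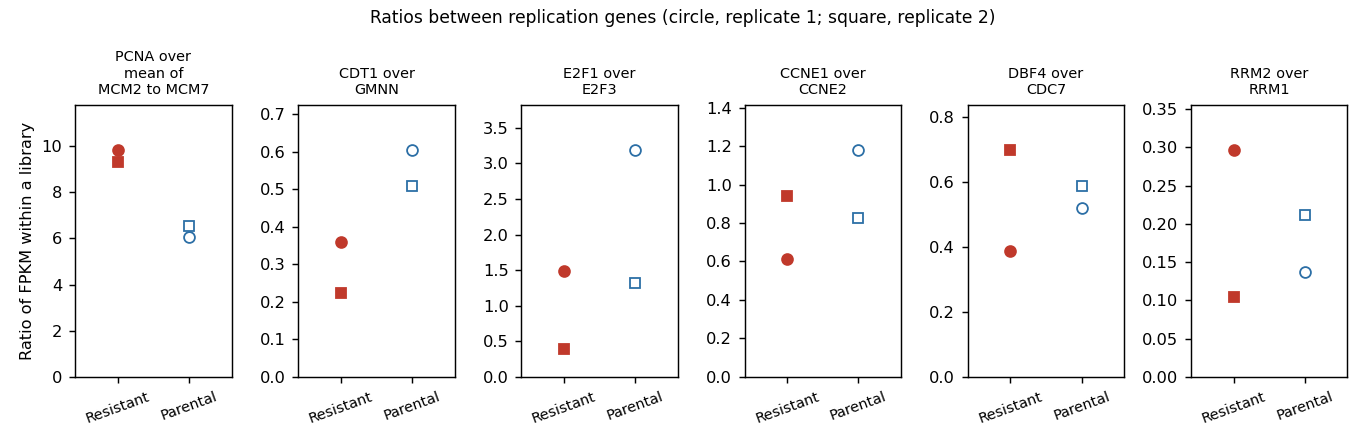
Ratios of FPKM within a library for 6 pairs of replication genes, resistant on the left and parental on the right of each panel, every axis starting at 0. PCNA over the MCM mean is higher (9.83 and 9.29 against 6.04 and 6.53) and CDT1 over GMNN lower (0.359 and 0.222 against 0.605 and 0.508) in both resistant libraries, and the ratios in the other 4 panels overlap. Of all single genes tested, 19.1% were higher and 31.8% lower without overlap.

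Genes of nucleotide supply mostly overlapped between groups. Their median log2 fold change was -0.17, like that of the 59 genes. The median difference from the parental mean was 0.003 in resistant replicate 1 and -0.38 in replicate 2. TYMS, which makes thymidylate, was the most abundant, with 56.8 and 35.9 FPKM in resistant, against 50.02 and 52.8 FPKM in parental libraries (-0.18 ± 0.25 SE, limma adjusted p = 0.747). TK1, thymidine kinase of the salvage route, had 39.6 and 31.9 against 39.9 and 43.8 FPKM. It was the only gene of the 5 without overlap (20%, against 31.8% of all genes lower without overlap), and by a narrow margin. RRM1, the large subunit of ribonucleotide reductase, had 27.0 and 36.3 FPKM in resistant, against 39.5 and 31.9 FPKM in parental libraries, and the small subunit RRM2 had 8.02 and 3.76 against 5.40 and 6.74 FPKM. The resistant libraries therefore differed in opposite directions for the subunits of 1 enzyme. DUT, which removes dUTP, had 25.4 and 23.5 against 24.02 and 26.8 FPKM. All 5 fold changes lay below 0 (100%, against 58.6% of all genes), between -0.23 and -0.05. DUT turned above 0 after median-of-ratios or quantile scaling.

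All 4 genes of chromatin assembly and histone mRNA were lower in both resistant libraries than the parental mean, and stayed below 0 after each scaling. Of all genes, 51.2% were lower than that mean in resistant replicate 1 and 63.0% in replicate 2. Their median log2 fold change was -0.45, the lowest of the 7 roles. CHAF1B and CHAF1A are subunits of CAF-1, which deposits histones behind the fork. CHAF1B had 6.85 and 5.22 FPKM in resistant, against 9.71 and 9.10 FPKM in parental libraries (-0.57 ± 0.20 SE, limma adjusted p = 0.278), and CHAF1A had 10.8 and 14.2 against 18.8 and 16.0 FPKM (-0.46 ± 0.21 SE, limma adjusted p = 0.351). SLBP, which binds the stem-loop of histone mRNA, had 43.0 and 35.3 FPKM in resistant, against 48.8 and 44.3 FPKM in parental libraries. UHRF1, which recruits the maintenance DNA methyltransferase, had 7.49 and 13.5 against 19.9 and 9.94 FPKM, and its groups overlapped, the parental libraries lying farther apart than the resistant ones. Resistant replicate 2 lay above parental replicate 2, so its place below the parental mean rested on parental replicate 1. For the histone mRNAs that SLBP binds, the summed FPKM of all 36 replication-dependent histone genes with a value was 285 and 247 in resistant, against 107 and 129 in parental libraries. These mRNAs mostly lack poly(A) tails, the labels name poly(A) selection or removal of ribosomal RNA without tying either to a library, and the part of that step was not tested.

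E2F1, an activator of S phase genes, had 11.4 and 9.64 FPKM in resistant, against 17.0 and 13.5 FPKM in parental libraries (-0.49 ± 0.20 SE, limma adjusted p = 0.317), without overlap. E2F3, another activator, had 7.71 and 24.7 FPKM in resistant, against 5.35 and 10.2 FPKM in parental libraries. Its log2 fold change of 0.83 ± 0.57 (SE, limma adjusted p = 0.510) was the highest of the 59 and came from 1 library, since it was 0.04 without resistant replicate 2 and 1.61 without replicate 1. E2F2 overlapped at 3.24 and 3.08 against 3.55 and 3.19 FPKM. CCNE2, a cyclin that drives entry into S phase with CDK2, had 7.60 and 5.18 FPKM in resistant, against 4.71 and 5.14 FPKM in parental libraries, the last of the 3 genes that were higher without overlap, replicate 2 by a narrow margin. Its relative CCNE1 had 4.67 and 4.87 against 5.56 and 4.24 FPKM. The median of the 5 genes was -0.02, and it was 0.06 after median-of-ratios scaling and 0.05 after quantile normalization.

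**Figure D4:**
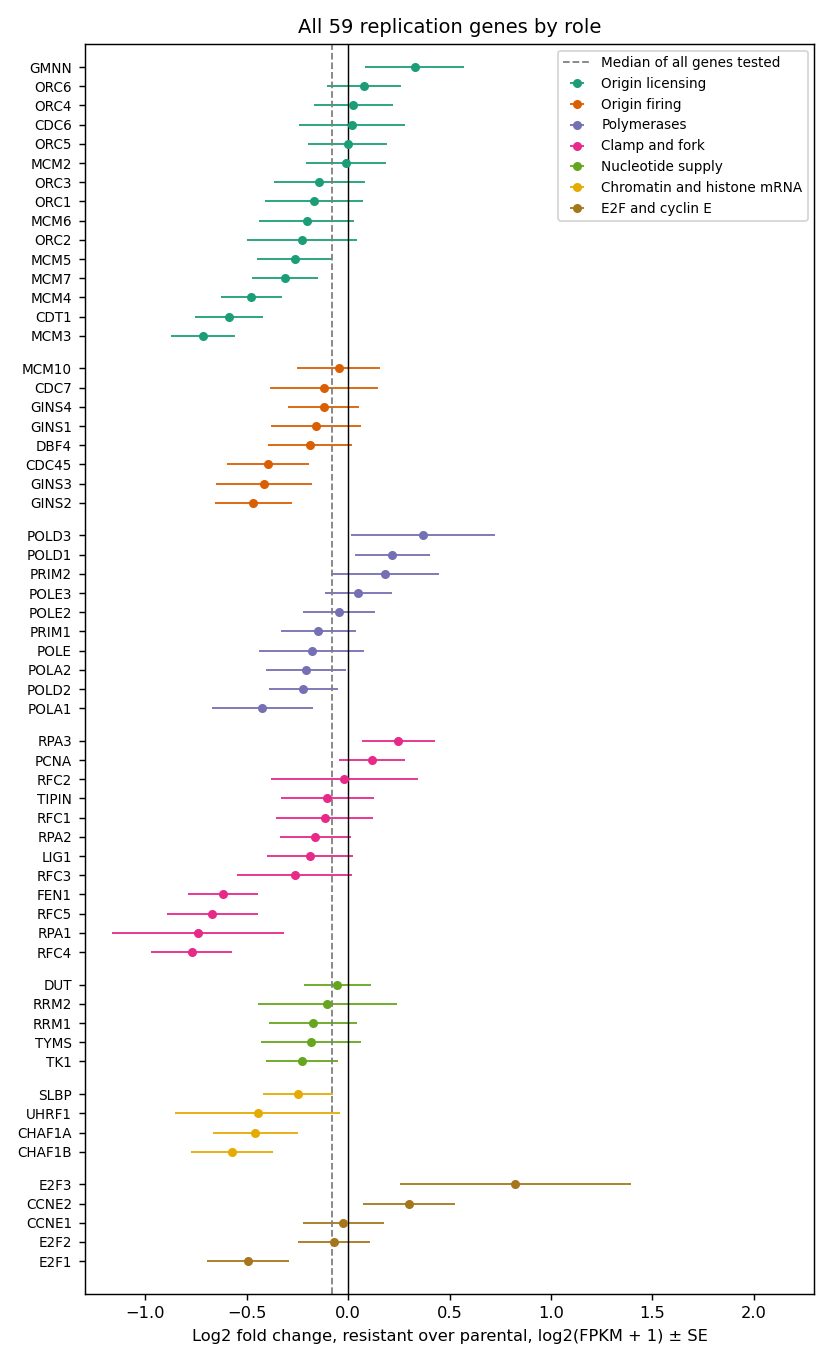
Log2 fold change of resistant over parental libraries for the 59 replication genes, grouped by role and sorted within it, on the log2(FPKM + 1) scale with bars of 1 SE from limma. The solid line marks 0 and the dashed line the median of all genes tested (-0.08), and 47 of the 59 points lie left of 0.

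Of 70 further replication genes, 69 were tested and 0 were called over all genes. At an unadjusted limma p under 0.05, 4 (5.8%) were lower, against 10.2% of all genes, and 3 (4.35%) were higher, against 6.06%. Their median log2 fold change was -0.17, with 42 (60.9%) below 0, against 58.6% of all genes. CDKN1A, the inhibitor p21, which binds both cyclin-dependent kinases and PCNA, had 34.8 and 34.6 FPKM in resistant, against 12.5 and 11.0 FPKM in parental libraries (1.49 ± 0.16 SE, limma adjusted p = 0.0781). POLE4, the partner of POLE3, had 24.8 and 27.4 FPKM in resistant, against 12.7 and 13.0 FPKM in parental libraries (0.96 ± 0.16 SE, limma adjusted p = 0.122). The S phase kinase CDK2 had 77.4 and 66.2 against 122 and 118 FPKM (-0.74 ± 0.15 SE, limma adjusted p = 0.156). It lies wholly within the pigment cell marker gene PMEL, on the opposite strand. PMEL had 394.5 and 337.8 FPKM in resistant, against 619.9 and 380.0 FPKM in parental libraries. Whether the values used strand was not stated, and the part of PMEL reads in the CDK2 level was not tested. Cyclin A, CCNA2, the partner of CDK2, had 44.2 and 36.7 against 62.5 and 63.4 FPKM.

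Of 18 markers of cycling cells, all 18 were tested and 0 were called over all genes. CCNA2 and TOP2A were also among the 70 further replication genes, and CCNA2 is counted as lower in both lists. At an unadjusted limma p under 0.05, 4 (22.2%) were lower, against 10.2% of all genes, and 1 (5.56%) was higher, against 6.06%. Their summed FPKM was 525 and 534 in resistant, against 599 and 623 in parental libraries. The median difference from the parental mean was -0.11 in resistant replicate 1 and -0.45 in replicate 2, where all genes had -0.01 and -0.16. The fold change was below 0 for 14 of the 18 (77.8%), against 58.6% of all genes. The part of these differences in the replication genes was not tested. AURKB, a kinase of mitosis, had 9.22 and 6.91 FPKM in resistant, against 24.95 and 20.4 FPKM in parental libraries, and TPX2, a spindle assembly factor, had 28.2 and 17.9 against 46.5 and 46.7 FPKM. MKI67, the proliferation marker Ki-67, lay the other way with 9.09 and 11.1 against 3.29 and 6.92 FPKM.

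Some levels carry a counting uncertainty. The library preparation marks strand with dUTP per the labels, and whether the deposited values used it was not stated there. In GENCODE release 29 a protein-coding gene lies on the opposite strand over part of 15 of the 59 genes, among them RFC4 (EIF4A2), RFC5 (WSB2), FEN1 (TMEM258), GINS2 (GSE1), CHAF1A (UBXN6), TYMS (ENOSF1) and CCNE2 (INTS8 and NDUFAF6). Named pseudogenes exist for 11 of them, among them PCNA, RRM2, DUT and FEN1, and the division of reads between copies is uncertain there.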

How the data were processed

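RNA of 2 resistant and 2 parental libraries was measured. The authors deposited 1 FPKM value per gene and library, per the file headers, which is a level relative to transcript length and mapped fragments. The submitters' processing notes name hg38. Not given in the sources used here are the aligner, the counter and the annotation release. Groups were taken from the sample titles (Res and Ctrl), and their names, resistant and parental, from the genotype labels. Gene IDs were matched to current symbols, and positions were taken from GENCODE release 29 (GRCh38). Promoter sequences are RefSeq's.

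The scale of all tests was log2(FPKM + 1), without rescaling of libraries. Genes averaging at least 1 FPKM were compared in limma 3.58.1 (R 4.3.3), two-sided and with a trend in the variance, adjusted over all genes at 0.05, and the fit was tested on simulated data. FPKM are not counts, so no count model was used, and without depth no counting interval could be given. Intervals are limma's at 95%. Figures were made in Python 3.11.15 with matplotlib 3.10.9.

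Genes, roles and lists were chosen with earlier results of these data known. Values by library were set for, in each role, up to 3 genes of smallest p, the most abundant gene and the gene farthest in the direction opposite to the role's median (26 genes), and up to 4 genes of smallest p in other lists. Other genes given by library were chosen after their values were seen.

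The alternatives were a pseudocount of 0.1, no filter, a minimum of 5 FPKM, a common FPKM sum, median-of-ratios and quantile scaling, no variance trend, a replicate block, and leaving out each library.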

Additional observations from a re-analysis of the deposited data

How the results depend on the processing

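With 0 calls among the 59 replication genes in every alternative run, the counts at an unadjusted limma p under 0.05 show the dependence. Leaving out 1 library at a time gave 0 to 22 lower and 0 to 3 higher replication genes, 336 to 2528 lower and 332 to 1107 higher genes over all genes tested, and 0 to 19 genes called higher and 0 to 13 called lower. The median log2 fold change of the 59 ran from -0.31 (without resistant replicate 1) to -0.048 (without resistant replicate 2, when 33 of the 59 were below 0), so the size of the shift rests largely on resistant replicate 2. The lower genes were 22 without resistant replicate 1 (37.3%, against 24.6% of all genes), 9 without resistant replicate 2 (15.3%, against 11.3%), 1 without parental replicate 1 (1.69%, against 3.27%) and 0 without parental replicate 2 (against 4.51%). With 3 libraries the lone one is assumed to vary like the others. With a pseudocount of 0.1, median-of-ratios scaling or quantile normalization, 3 genes were called higher over all genes. With a minimum mean of 5 FPKM, which tests fewer genes (5632), 327 were higher and 630 lower at an unadjusted p.

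No shift shared by replicate number was seen (the replicate 1 minus replicate 2 differences of the groups correlated at -0.07 across genes). That value cannot tell whether the libraries were made in pairs. With the replicate number as a block, 7 replication genes were lower and 1 was higher (E2F3) at an unadjusted p, and 0 were called.

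Of 26 genes described by rule, 21 kept their direction in every alternative that tested them, and none was called. The other 5 turned when 1 library was left out, PCNA (-0.050 to 0.28) and RRM1 (-0.38 to 0.030) without resistant replicate 1, POLE3 (-0.057 to 0.16) and TYMS (-0.51 to 0.14) without resistant replicate 2, and POLD3 (-0.11 to 0.84) without parental replicate 1. The cause was not tested.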

Other observations

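The remaining E2F factors and their partners had no adjusted limma p under 0.05. E2F4, a repressor of the family, had 4.91 and 6.81 FPKM in resistant, against 9.31 and 7.67 FPKM in parental libraries (-0.48 ± 0.22 SE, limma adjusted p = 0.360). The dimer partner TFDP1 had 43.5 and 30.9 against 18.03 and 41.6 FPKM, and RB1, which binds the activator E2F factors, had 11.0 and 6.50 against 7.30 and 7.83 FPKM. CCND1, the D-type cyclin that acts with CDK4 and CDK6, had 86.8 and 90.5 FPKM in resistant, against 84.3 and 80.6 FPKM in parental libraries. A mixed list of 19 genes held CDK inhibitors and quiescence genes together with D-type cyclins, CDK4 and CDK6. Some of them, CDKN1A among them, were also among the 70 further replication genes. Of the 19, 18 had a value and 17 were tested, with 0 called over all genes. At an unadjusted limma p under 0.05, 1 was higher (CDKN1A, 5.88%, against 6.06% of all genes). By the same measure 2 were lower (CDKN2D and CDKN1C, 11.8%, against 10.2%). These genes were chosen after their values were seen.

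CUL4A, a ubiquitin ligase scaffold that with DTL marks CDT1 for destruction, had 10.6 and 1.84 FPKM in resistant, against 11.3 and 11.5 FPKM in parental libraries. CLSPN, a mediator of the replication checkpoint, had 14.9 and 35.9 against 15.4 and 17.8 FPKM. Like those of E2F3 and RPA1, these differences stood in resistant replicate 2 and not in replicate 1.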
